A study of Homo sapiens with 12 samples.

Results

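The genes described here encode proteins that write, read or erase marks on histones and DNA, or that slide and evict nucleosomes. They were chosen by a rule on the symbol that used no measured value, although earlier results of these data were known. The rule took the numbered KDM, KMT, KAT, PRMT, ARID, CHD, BRD, PHF and CBX families, the SETD, EZH, DNMT, ASXL, SIN3 and RCOR families, the sirtuins, the TET, MTA and MBD families, SUZ12, EP300 and CREBBP. It also took EED and symbols that begin with SMARC, BAZ or NCOR, of which the pseudogene NCOR1P1 was analysed here. It found 129 of the 14580 genes measured, each with 1 probe set. Of these, 123 were protein-coding genes, 3 were long non-coding RNAs named after a neighbouring gene and 3 were pseudogenes, so the last 6 encode no chromatin protein. Some other genes of these kinds were not analysed here.

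RNA came from A2058, an established human melanoma cell line, 24 h after treatment began. The solvent group (DMSO) received no drug. The DT group received dabrafenib (100 nM), an inhibitor of mutant BRAF, with trametinib (10 nM), an inhibitor of MEK. The E group received entinostat (1 µM), an inhibitor of class I histone deacetylases, and the DTE group received the 3 drugs at the same doses. Each group had 3 arrays of the same line. The titles call these biological replicates and the design text calls them technical triplicates, so every p-value measures no more than how these arrays vary, and that variation may be technical.

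Histone acetyltransferases such as EP300 and CREBBP add acetyl groups that open chromatin, and histone deacetylases, the target of entinostat, remove them. Several deacetylase complexes also hold the demethylase KDM1A and a scaffold of the RCOR family. Lysine methyltransferases of the KMT2 family mark active enhancers and promoters, whereas Polycomb repressive complex 2, with EZH2 as its enzyme and PHF19 as an accessory subunit, marks silent genes. SWI/SNF and CHD proteins use ATP to move nucleosomes, and SWI/SNF genes are often mutated in cancer.

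The 4 promoters shown first belong to the members with the largest called rise and the largest called fall in DT and in E against DMSO: ARID5B and PHF10 for DT, and KDM1B and PHF19 for E. Each is RefSeq sequence of build GRCh38.p14, written 5′ to 3′ on the gene's own strand, from 250 bases before to 50 bases after the annotated start. ARID5B (NCBI Gene 84159) lies at chr10:61901449-61901748 on the plus strand, PHF10 (55274) at chr6:169724451-169724750 on the minus strand, KDM1B (221656) at chr6:18155172-18155471 on the plus strand and PHF19 (26147) at chr9:120868862-120869161 on the minus strand. Capitals mark matches, on either strand, to 6 motif types: E2F (TTTGGCGC, TTTCCCGC, TTTCGCGC or TTTGCCGC), E-box (CACGTG), ETS (CCGGAAG), AP-1 (TGANTCA), NF-Y (CCAAT) and the GC box (GGGCGG).
ARID5B: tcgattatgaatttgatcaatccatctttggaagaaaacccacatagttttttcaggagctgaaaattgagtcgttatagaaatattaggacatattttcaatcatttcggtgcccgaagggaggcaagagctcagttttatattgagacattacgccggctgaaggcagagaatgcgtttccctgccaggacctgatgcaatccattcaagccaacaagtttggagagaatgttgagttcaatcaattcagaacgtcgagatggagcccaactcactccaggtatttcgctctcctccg
PHF10: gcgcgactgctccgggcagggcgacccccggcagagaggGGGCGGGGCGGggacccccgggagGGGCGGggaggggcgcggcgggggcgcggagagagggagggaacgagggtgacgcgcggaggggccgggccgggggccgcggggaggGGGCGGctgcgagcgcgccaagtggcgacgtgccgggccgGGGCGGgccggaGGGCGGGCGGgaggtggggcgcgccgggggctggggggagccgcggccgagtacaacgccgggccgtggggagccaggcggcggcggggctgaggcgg
KDM1B: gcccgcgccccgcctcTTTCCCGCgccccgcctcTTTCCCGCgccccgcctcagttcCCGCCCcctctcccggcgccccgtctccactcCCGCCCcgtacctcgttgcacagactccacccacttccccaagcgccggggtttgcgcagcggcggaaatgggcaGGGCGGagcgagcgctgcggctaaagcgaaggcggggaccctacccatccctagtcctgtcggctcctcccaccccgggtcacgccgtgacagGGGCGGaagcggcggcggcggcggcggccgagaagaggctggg
PHF19: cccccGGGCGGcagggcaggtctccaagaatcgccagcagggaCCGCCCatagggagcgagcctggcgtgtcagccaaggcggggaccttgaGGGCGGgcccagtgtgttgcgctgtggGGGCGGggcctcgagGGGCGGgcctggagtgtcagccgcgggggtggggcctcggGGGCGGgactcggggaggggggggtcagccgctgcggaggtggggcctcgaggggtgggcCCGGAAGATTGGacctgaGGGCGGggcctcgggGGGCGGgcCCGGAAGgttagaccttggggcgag
The ARID5B window had a GC content of 43% and held no match to the letters searched. The PHF10 window had a GC content of 85.3% and held 7 GC boxes, some of which overlap. In KDM1B the search found 2 matches of E2F type and 4 GC boxes, and in PHF19 it found 2 of ETS type, 1 of NF-Y type and 8 GC boxes. Of 27305 promoters in the RefSeq table, 3.33% held an E2F type match, 7.43% an E-box, 10.7% an ETS type match, 7.76% an AP-1 type match, 35.7% an NF-Y type match and 44.6% a GC box. Among the 10560 genes measured with a promoter there the shares were higher for most of these, at 4.5%, 9.02%, 15%, 5.89%, 36.0% and 60.5% in the same order. For the 110 members with a promoter in that table the shares were 8.18%, 13.6%, 16.4%, 1.82%, 31.8% and 67.3%, again in that order. Such matches describe the letters of these windows, and binding was not measured.

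Most members were bright beside other genes, although signal over background was not measured. The median member averaged 6.53 on the log2 intensity scale over the 12 arrays, against 4.69 for the median gene, and 108 of 129 lay above the gene median. At or below the lower quartile of genes (3.01) were 7 members, namely ASXL3, BRD7P3, CBX3P2, DNMT3L, KDM4E, NCOR1P1 and PRMT8, whose signal was not shown to exceed background. All 13 measured melanocyte genes, among them SOX10, PMEL, TYR and S100B, lay above the lower quartile in each group, as most genes do by definition. MLANA and KIT averaged 4.79 and 4.74, near the median gene, and markers of other cells such as LUM (7.91) and CD68 (8.72) were bright. These levels therefore cannot identify the line. All 15 measured genes of ERK pathway output fell in DT (median log2 change -3.24). Summed intensity of 24 proliferation genes ran from 10050 to 11030 for DMSO, 7216 to 8119 for DT, 8278 to 8428 for E and 6330 to 7344 for DTE, and its part in the member changes was not tested. In bulk RNA, fewer cells expressing a gene and less RNA per cell cannot be told apart.

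The scale of the arrays matters for these bright genes. The median array value over all genes was 4.68 ± 0.11 for DMSO (SD, n = 3), 4.48 ± 0.11 for DT, 4.88 ± 0.02 for E and 4.66 ± 0.04 for DTE on the log2 scale, and the shift between groups depended on signal level. The median change of all genes was -0.17 for DT, 0.07 for E and -0.11 for DTE as deposited, and 0.00 for DT, -0.03 for E and -0.04 for DTE after quantile normalization. Values below are as deposited, and a gene was called at an adjusted p under 0.05 (limma, Benjamini-Hochberg over 14580 genes). Values after quantile normalization, which gives every array the same distribution, are given as a second scale.

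Entinostat alone lowered 19 members and raised 14. Over all genes 3.54% were called lower and 12.5% higher, so the share of members called lower (14.7%) was above the background and the share called higher (10.9%) near it. The members that fell were led by the Polycomb accessory subunit PHF19 and by acetyltransferases, and those that rose by the demethylases KDM1B and KDM5B, the corepressor scaffold RCOR2 and the DNA-binding factor ARID5B. After quantile normalization the counts were 35 lower and 11 higher, against 8.45% and 9.67% of all genes, and with median centring they were 51 and 6, against 16.3% and 7.53%. Fitted on the 7290 genes above the median level alone, 23 of 108 members fell and 14 rose, against 8.66% and 17.7% of those genes. Each of the 19 members that fell was also called lower after quantile normalization and after median centring. The median change over members was -0.05 on the deposited scale, -0.15 on the quantile scale and -0.25 with each array centred on its median. Leaving out single arrays moved the count of higher members from 14 to 8 without DMSO 3 or E 3 and to 9 without E 1.

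PHF19, which helps bring Polycomb repressive complex 2 to chromatin, read 7.78, 7.91 and 7.76 on the 3 DMSO arrays and 6.64, 6.63 and 6.70 on the 3 E arrays. The groups did not overlap, and the E arrays lay closer together than the DMSO arrays. The log2 change was -1.15 (SE 0.12, limma adjusted p = 2e-06), a 2.23-fold fall and the largest among members in E. PHF19 read 7.41, 7.71 and 7.64 in DT and 6.30, 6.09 and 6.30 in DTE, so the low values belonged to both groups that received entinostat. It changed by -1.36 in DTE against DT (SE 0.12, adjusted p = 2.1e-07). The enzymes and core of the same complex gave other values: EZH2 changed by 0.08 in E (adjusted p = 0.755), EZH1 by -0.05 (adjusted p = 0.87) and SUZ12 by 0.23 (adjusted p = 0.266). PHF1, a relative of PHF19, changed by -0.29 in E as deposited (adjusted p = 0.0952) and by -0.35 after quantile normalization, where it was called (adjusted p = 0.014).

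Of the 9 acetyltransferase genes, 6 fell in E, with a median change of -0.42, where 3.54% of all genes fell. After quantile normalization 7 fell, with a median of -0.56, where 8.45% of all genes fell. CREBBP, a coactivator that acetylates histones at enhancers, read 9.73, 9.87 and 9.75 in DMSO, 9.16, 9.04 and 9.13 in E, 9.37, 9.58 and 9.39 in DT and 8.90, 9.09 and 9.15 in DTE. Every E array lay below every DMSO and DT array. The change in E was -0.67 (SE 0.12, limma adjusted p = 0.00047). Its paralog EP300 read 9.04, 9.29 and 9.16 in DMSO, 8.60, 8.47 and 8.58 in E, 8.59, 8.87 and 8.65 in DT and 8.27, 8.33 and 8.44 in DTE. The DMSO arrays stood highest, and the DTE arrays lay below all others. EP300 changed by -0.61 in E (SE 0.12, adjusted p = 0.0014).

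The MYST-family gene KAT6B read 6.83, 7.20 and 6.93 in DMSO and 6.17, 6.16 and 6.22 in E, with no overlap, and fell by 0.80 (SE 0.14, adjusted p = 0.00056). KAT7, which acetylates histone H3 and H4 in complexes with JADE or BRPF proteins, fell by 0.55 (adjusted p = 0.0031). KAT2A, the acetyltransferase of SAGA, fell by 0.42 (adjusted p = 0.0142), and KAT5, the acetyltransferase of the NuA4 complex, by 0.42 as well (adjusted p = 0.015). The KAT2A call was lost without DMSO 2 and the KAT5 call without DMSO 1 or E 3. The remaining 3 were KAT2B at -0.34 (adjusted p = 0.088, called lower at -0.38 after quantile normalization), KAT8 at -0.21 and KAT14 at -0.12.

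**Figure D1:**
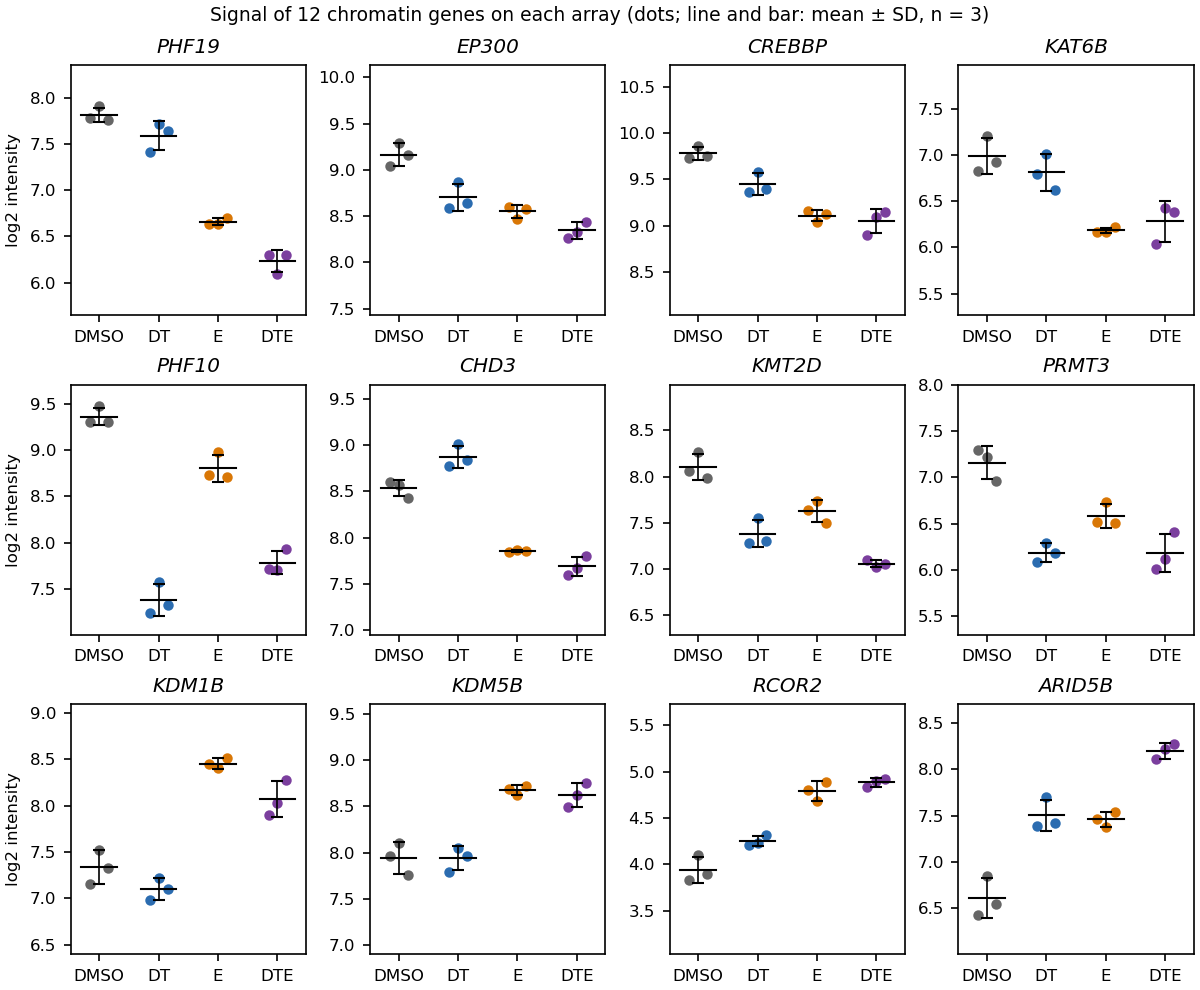
Log2 intensity (vertical axes, all of the same span) of 12 members on the 12 arrays, by treatment group (horizontal axes); dots are arrays, horizontal lines means and bars SD (n = 3). PHF19, EP300, CREBBP and KAT6B were lower on the E than on the DMSO arrays, PHF10 and PRMT3 were lower on the DT arrays, and KDM1B, KDM5B, RCOR2 and ARID5B were higher on the E arrays.

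Among 23 genes of the lysine demethylase group, 5 rose and 2 fell in E, where 12.5% and 3.54% of all genes did. KDM1B, a flavin-dependent H3K4 demethylase, had the largest rise of any member in E. It read 7.16, 7.52 and 7.33 in DMSO, 6.98, 7.22 and 7.10 in DT, 8.45, 8.40 and 8.52 in E and 7.90, 8.03 and 8.28 in DTE. All 6 entinostat arrays exceeded the 6 that lacked the drug. The change in E was 1.12 (SE 0.13, limma adjusted p = 9.1e-06), or 2.17-fold. KDM5B, a JmjC-domain H3K4 demethylase known for marking slow-cycling melanoma cells, read 7.97, 8.10 and 7.75 in DMSO, 7.80, 8.05 and 7.97 in DT, 8.68, 8.62 and 8.73 in E and 8.49, 8.62 and 8.75 in DTE. Again the arrays with entinostat were all above those without, and the change in E was 0.74 (SE 0.12, limma adjusted p = 0.0004). After quantile normalization KDM5B was called higher in DT as well, with a mean of 7.78 in DMSO and 8.14 in DT.

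KDM1A, the demethylase of the RCOR and deacetylase complex, rose by 0.48 in E (adjusted p = 0.0119). That call was lost without DMSO 1 or E 1 and after median centring (0.29, adjusted p = 0.0694). KDM7A, which removes repressive H3K9 and H3K27 methylation, rose by 0.59 in E (adjusted p = 0.0045), and its divergent transcript KDM7A-DT rose by 0.49 as deposited (adjusted p = 0.0075) but was not called after quantile normalization (0.27, adjusted p = 0.102). The 2 that fell were PHF2, an H3K9 demethylase of the KDM7 family, at -0.53 (adjusted p = 0.0046) and KDM3B, another H3K9 demethylase, at -0.45 (adjusted p = 0.0131, lost without E 3). The balance of calls depended on the scale, since 8 fell and 4 rose after quantile normalization, and the group median was negative on both (-0.14 and -0.18).

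The corepressor scaffold gene RCOR2 was dim in DMSO, at 3.83, 4.10 and 3.90, and read 4.81, 4.68 and 4.89 in E. It read 4.21, 4.24 and 4.32 in DT and 4.83, 4.90 and 4.92 in DTE, so the DT arrays fell between DMSO and the groups with entinostat. RCOR2 rose by 0.85 in E (SE 0.12, limma adjusted p = 4.2e-05). On the quantile scale RCOR2 was also called higher in DT, with a mean of 3.96 in DMSO and 4.45 in DT. Its relative RCOR1 changed by 0.21 (adjusted p = 0.371), and the scaffold SIN3A by -0.11 (adjusted p = 0.627). MTA1, a subunit of the NuRD deacetylase complex, changed by 0.03 (adjusted p = 0.93).

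Genes with an ARID domain were called in both directions under entinostat, where 12.5% of all genes rose and 3.54% fell. Of the 6 ARID genes outside SWI/SNF, 4 rose: ARID5B by 0.86 (adjusted p = 0.00015), ARID3A by 0.62 (0.0247), ARID5A by 0.59 (0.002) and ARID3B by 0.51 (0.0153). The ARID3A call was lost without any of DMSO 1, DMSO 3, E 2 or E 3, the ARID3B call without DMSO 3, E 1 or E 3, and neither was called after median centring. After quantile normalization ARID3A was at 0.49 (adjusted p = 0.0493) and ARID3B was not called (0.37, adjusted p = 0.0533). Of the 4 SWI/SNF genes among the members, 3 fell: ARID1B by 0.57 (adjusted p = 0.0036), PHF10 by 0.56 (0.005) and ARID1A by 0.53 (0.0175, lost without DMSO 2 or E 1). BRD7, a subunit of the same PBAF form as PHF10, changed by 0.05 (adjusted p = 0.838).

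CHD3, a NuRD remodeller, read 8.60, 8.57 and 8.43 in DMSO and 7.85, 7.87 and 7.86 in E, a fall of 0.68 (SE 0.11, limma adjusted p = 0.00037). CHD4, its paralog, read 9.14, 9.29 and 8.98 in DMSO and 9.25, 9.16 and 9.14 in E, and the groups overlapped. In the lysine methyltransferase group of 14 genes, KMT2D fell by 0.48 (adjusted p = 0.0107, lost without DMSO 2 or E 3). KMT2B fell by 0.41 (adjusted p = 0.0302, lost without any of DMSO 1, DMSO 2 or an E array). After quantile normalization 6 of these 14 were lower and 1 higher, with KMT2D at -0.51 and KMT2B at -0.48, and with median centring 7 were lower. PRMT3 was the 1 of 8 arginine methyltransferases that fell, by 0.57 (adjusted p = 0.0062). In the DNA methylation group TET2, a 5-methylcytosine dioxygenase, fell by 0.44 (adjusted p = 0.0356, lost without DMSO 1, DMSO 2, E 1 or E 3), and DNMT3B, a de novo methyltransferase, rose by 0.53 as deposited (0.0228) but not after quantile normalization (0.32, adjusted p = 0.121). DNMT1 changed by -0.15 (adjusted p = 0.492) and DNMT3A by 0.17 (adjusted p = 0.418). The sirtuin SIRT1 changed by -0.43 in E (adjusted p = 0.0545) and was called lower after quantile normalization (-0.48, adjusted p = 0.0049).

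The entinostat effect was measured again on separate arrays, in DTE against DT. There 17 members fell and 15 rose, against 5.09% and 13.8% of all genes. Of the 19 that fell in E, 12 also fell in DTE against DT, which is 63.2% of the first list and 70.6% of the second. The shares for all genes were 51.6% and 35.8%. The 12 were PHF19, CHD3, PHF2, ARID1B, KMT2B, PHF23, KAT6B, KAT7, KAT5, KDM3B, CREBBP and EP300. Of the 14 that rose, 9 also rose there, 64.3% and 60.0% of the lists, and for all genes these shares were 64.2% and 58.2%. The 9 were KDM1B, KDM1A, KDM5B, KDM7A, RCOR2, ARID5A, ARID5B, CHD7 and DNMT3B. On the quantile scale DNMT3B was called in neither comparison (0.33 in DTE against DT, adjusted p = 0.0932), and 9 rises and 23 falls were shared. Across the 129 members the changes in the comparisons had a Pearson correlation of 0.82, and across all genes 0.69, where genes are not independent replicates. The CREBBP call in DTE against DT (-0.40, adjusted p = 0.0202) was lost without DT 2 or DTE 1. The EP300 call there (-0.36, adjusted p = 0.0441) was lost without any of 9 arrays, among them each DT array. The count of members that fell was 9 without DT 2, and after quantile normalization it was 33 (12% of all genes) with 12 that rose (12.2%). Median centring gave 38 falls and 10 rises, against 15.4% and 9.36%.

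**Figure D2:**
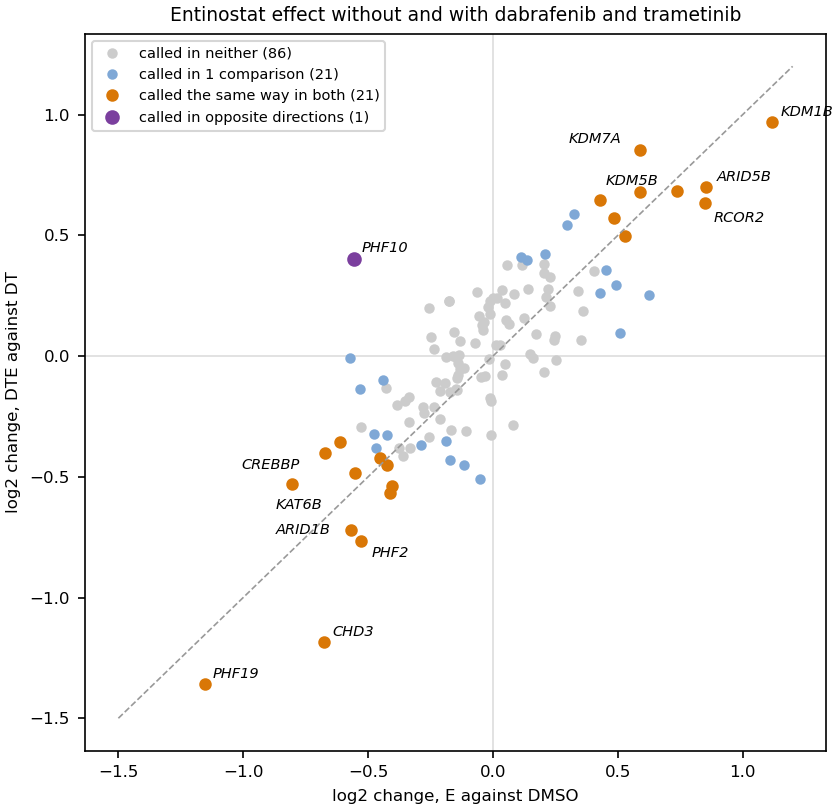
Log2 change of the 129 members in E against DMSO (horizontal axis) and in DTE against DT (vertical axis), comparisons that share no array; the dashed line marks equal changes. Of the members, 21 were called the same way in both (9 higher, 12 lower), and PHF10 was called in opposite directions (-0.56 and 0.40).

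CHD3 fell in both comparisons of entinostat. It read 8.78, 9.01 and 8.84 in DT and 7.60, 7.67 and 7.80 in DTE, so the DT arrays were the highest of the series and the DTE arrays the lowest. The change in DTE against DT was -1.18 (SE 0.11, limma adjusted p = 7.1e-07), or 2.27-fold, beside -0.68 in E. The difference between these changes was -0.51 (adjusted p = 0.169) as deposited, and it was called after quantile normalization (-0.56, adjusted p = 0.0224).

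Dabrafenib with trametinib lowered 45 members (34.9%) and raised 3. Over all genes 24.1% were called lower and 3.23% higher. Among the brighter genes the fall was more frequent, as 50.1% of the 7290 genes above the median level were called lower and 5.58% higher when fitted on their own. Of the 108 members among them 51 were lower (47.2%), a share near that background, and 3 were higher. After quantile normalization 9 members were lower and 11 higher, against 7.86% and 8.55% of all genes, and all 9 were among the 45. Median centring left 17 lower and 7 higher, against 12% and 8.08%. The median change over members was -0.25 as deposited and 0.01 after quantile normalization. The 9 were PHF10, PRMT3, PRMT5, PRMT1, CHD1, KMT5A, KMT2D, SETD3 and KDM7A, which were called lower after median centring too. Leaving out DMSO 2 or DT 1 left 26 members lower and leaving out DT 3 left 24. For 66 of 129 members (51.2%) the DT and DMSO arrays did not overlap, compared with 39.9% of all genes.

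PHF10, a subunit of the PBAF form of SWI/SNF known for a role in neural progenitor cells, fell most. It read 9.30, 9.47 and 9.31 in DMSO and 7.24, 7.57 and 7.33 in DT. The groups were far apart, and the arrays within each group lay close together. The change was -1.98 (SE 0.13, limma adjusted p = 2.3e-09), or 3.94-fold, and -1.60 after quantile normalization. The other SWI/SNF genes among the members gave smaller values. BRD7 fell by 0.44 as deposited (adjusted p = 0.0128) but changed by -0.06 after quantile normalization. ARID1A changed by -0.38 (adjusted p = 0.0599) and ARID1B by -0.05 (adjusted p = 0.816) as deposited. After quantile normalization ARID1B was called higher in DT, with a mean of 7.23 in DMSO and 7.54 in DT.

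Of the 8 arginine methyltransferase genes, 4 fell in DT and 3 of them also after quantile normalization. Over all genes 24.1% fell as deposited and 7.86% after quantile normalization. Of the genes above the median level, fitted alone, 50.1% fell. PRMT3, which methylates a ribosomal protein, read 7.29, 7.22 and 6.96 in DMSO and 6.09, 6.29 and 6.18 in DT, with no overlap, and fell by 0.97 (SE 0.13, limma adjusted p = 3.6e-05; -0.60 after quantile normalization). PRMT5, the main enzyme of symmetric arginine methylation, read 6.19, 6.30 and 6.11 in DMSO and 5.39, 5.61 and 5.51 in DT, and was lower by 0.70 (SE 0.12, adjusted p = 0.00037). On the quantile scale its change was -0.39 (adjusted p = 0.0268). PRMT1, the main enzyme of asymmetric arginine methylation, read 5.71, 5.83 and 5.68 in DMSO and 5.02, 5.16 and 5.06 in DT. It fell by 0.66 (SE 0.12, adjusted p = 0.00043), and on the quantile scale by 0.39 (adjusted p = 0.0246).

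The lysine methyltransferase group gave 9 falls among 14 members as deposited and 3 after quantile normalization. These counts stand beside 24.1% and 7.86% of all genes, and 50.1% of the genes above the median level, fitted alone as deposited. The group was formed by symbol and so also holds SETD3 and the non-coding RNA KMT2E-AS1. KMT2D, an H3K4 methyltransferase of enhancers, read 8.06, 8.26 and 7.99 in DMSO and 7.28, 7.55 and 7.31 in DT, and fell by 0.72 (SE 0.12, limma adjusted p = 0.00025). KMT5A, the H4K20 monomethyltransferase, read 6.14, 6.33 and 6.11 in DMSO and 5.43, 5.49 and 5.47 in DT, and fell by 0.73 (adjusted p = 0.00017). SETD3, an actin histidine methyltransferase, fell by 0.72 (adjusted p = 0.00047). On the quantile scale these 3 changed by -0.34, -0.42 and -0.35. KMT2C, the paralog of KMT2D, changed by -0.15 (adjusted p = 0.504), and its arrays overlapped between the groups. SETD1A fell by 0.50 (adjusted p = 0.0043) and KMT2B by 0.37 (0.0365, lost without DMSO 1, DMSO 2, DT 1 or DT 3) as deposited, and neither was called after quantile normalization (-0.16 and -0.00).

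Several familiar regulators were lower in DT as deposited and were not called after quantile normalization. EZH2 read 8.29, 8.65 and 8.38 in DMSO and 7.85, 8.17 and 7.85 in DT, and fell by 0.48 (limma adjusted p = 0.0116, lost without DMSO 2, DT 1 or DT 3). SUZ12 fell by 0.49 (adjusted p = 0.007), the maintenance methyltransferase DNMT1 by 0.46 (0.0082), EP300 by 0.46 (0.0075), SIN3A by 0.45 (0.012) and MTA1 by 0.60 (0.0026). After quantile normalization these 6 genes changed by -0.11, -0.12, -0.08, -0.10, -0.09 and -0.24, with adjusted p between 0.203 and 0.669. MTA1 was also called lower after median centring (-0.40, adjusted p = 0.0213). The DNMT1 call was lost without DMSO 2 or DT 1, and the SIN3A call without DMSO 2, DT 1 or DT 3. CREBBP fell by 0.33 as deposited (adjusted p = 0.0398, lost without any DMSO array, DT 1, DT 3, E 3 or DTE 2) and changed by 0.00 after quantile normalization (adjusted p = 0.997).

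The 3 members that rose in DT as deposited were ARID5B, SIRT2 and CHD3. Among the 11 that rose after quantile normalization were also KDM5B and RCOR2. On that scale these 2 and ARID5B were called higher in DT, E and DTE. SIRT2, a mainly cytoplasmic deacetylase, read 6.08, 6.08 and 6.01 in DMSO, 6.36, 6.67 and 6.54 in DT, 6.08, 5.66 and 5.91 in E and 6.20, 6.20 and 5.88 in DTE. The DT arrays lay above all others, and the rise was 0.46 (SE 0.14, limma adjusted p = 0.0156, lost without DT 2). CHD3 rose by 0.34 (adjusted p = 0.0344), a call lost without any DMSO array, DT 2 or DT 3, and by 0.70 after quantile normalization (adjusted p = 2.5e-05). The count of rises was 1 without DT 2.

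**Figure D3:**
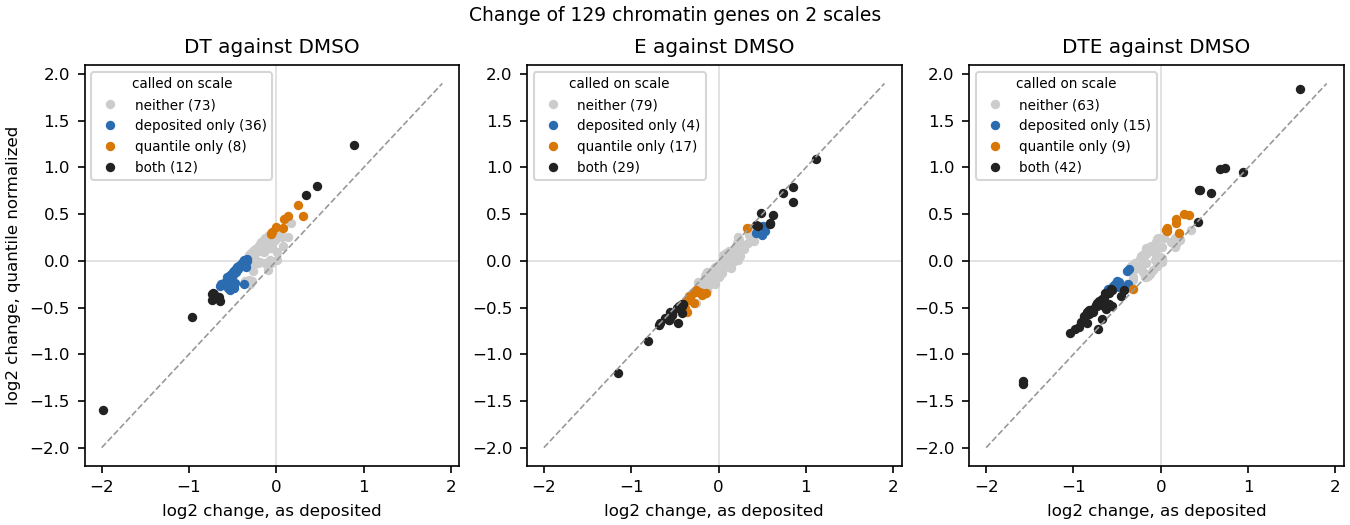
Log2 change of the 129 members as deposited (horizontal axes) and after quantile normalization (vertical axes) for each treatment against DMSO, coloured by the scale on which the member was called; the dashed line marks equal changes. In DT 12 members were called on both scales and 36 as deposited alone, and in E 29 were called on both and 4 as deposited alone.

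The effect of dabrafenib and trametinib was also measured on separate arrays, in DTE against E. There 41 members (31.8%) fell and 2 rose, against 22.4% and 2.08% of all genes. Fitted on the genes above the median level alone, 43 of 108 members fell (39.8%), near the 43.2% of those genes. Of the falls, 29 were shared with DT against DMSO, 64.4% of that list and 70.7% of the other (55.6% and 59.7% for all genes). On the quantile scale 2 of the 9 falls in DT were shared, 22.2% of that list beside 44.2% for all genes. Of the rises, ARID5B was shared, and the other rise was KAT2B, the paralog of KAT2A (0.41, limma adjusted p = 0.027, lost without E 1, E 2, DTE 2 or DTE 3). After quantile normalization the counts were 3 lower and 18 higher, against 5.84% and 6.99%, and with median centring they were 8 and 15, against 6.91% and 6.71%. KMT5A and PHF10 fell on all 3 scales. The count of falls was 20 without DTE 1, 26 without E 3 and 27 without DTE 2, and the count of rises was 1 without E 1, E 2, DTE 2 or DTE 3.

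The 3 drugs together lowered 49 members (38.0%) and raised 8, against 22.5% and 9.64% of all genes. On the quantile scale 35 were lower and 16 higher, against 14.2% each way, and with median centring 52 and 9, against 23.1% and 11%. Of the 49, 34 were called lower on all 3 scales, and so were the 8 called higher. Among genes above the median level 55 of 108 members fell and 7 rose, against 44.6% and 12.2%. DT, E and DTE were each compared with the same DMSO arrays, so their values stand side by side here without a test of overlap. ARID5B, a cofactor that recruits the H3K9 demethylase PHF2 and a regulator of fat and lymphoid cell development, read 6.43, 6.85 and 6.55 in DMSO, 7.38, 7.70 and 7.42 in DT, 7.46, 7.38 and 7.54 in E and 8.11, 8.22 and 8.28 in DTE. All treated arrays exceeded the DMSO arrays, and the DTE arrays exceeded the rest. The changes were 0.89 in DT (SE 0.13, limma adjusted p = 6.5e-05), 0.86 in E and 1.59 in DTE (adjusted p = 6.4e-08, 3.02-fold). The change in DTE differed from the sum of both separate changes by -0.15 (SE 0.19, adjusted p = 0.811).

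KMT2D read 7.64, 7.73 and 7.50 in E and 7.10, 7.02 and 7.05 in DTE, below the DT arrays, and fell by 1.05 in DTE (SE 0.12, limma adjusted p = 4.1e-06). KMT2B read 6.72, 6.85 and 6.57 in DMSO and 5.76, 5.71 and 5.88 in DTE, and fell by 0.93 (SE 0.13, adjusted p = 1.9e-05). KMT2C read 9.06, 9.48 and 9.07 in DMSO and 9.49, 9.74 and 9.71 in DTE and was the lysine methyltransferase gene that rose, by 0.44 (adjusted p = 0.0236, lost without DMSO 1, DMSO 3, DTE 2 or DTE 3). The 3 KMT2 genes measured, which share a catalytic SET domain, therefore did not all move one way.

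Of the 9 acetyltransferase genes, 7 fell in DTE, with a median of -0.71, where 22.5% of all genes fell. On the quantile scale 6 were called lower and 1 higher, and the group median was -0.45. KAT2A changed by -0.88 (SE 0.11, limma adjusted p = 1.2e-05), KAT7 by -0.82 (4e-05), EP300 by -0.82 (4.4e-05), CREBBP by -0.73 (9.9e-05) and KAT6B by -0.71 (0.00084). After quantile normalization these 5 changed by -0.59, -0.56, -0.52, -0.45 and -0.45, and each was called. In DT 4 of the 9, namely CREBBP, EP300, KAT2A and KAT7, were also lower as deposited. There 24.1% of all genes fell, and 50.1% of those above the median level, fitted alone. KAT2A changed most of the 9 in that direction, by -0.55. After quantile normalization 0 of the 9 were lower in DT and 2 were higher. KAT2B read 7.62, 7.83 and 7.76 in DMSO and 7.67, 7.78 and 7.99 in DTE, and the groups overlapped as deposited (0.07), whereas it was called higher after quantile normalization (0.35, adjusted p = 0.0115). In the demethylase group 9 fell and 5 rose in DTE, with the non-coding KDM7A-DT among the rises. After quantile normalization 8 of this group fell and 6 rose. Over all genes 22.5% fell and 9.64% rose in DTE as deposited, and 14.2% each way after quantile normalization. Of the genes above the median level, fitted alone, 44.6% fell and 12.2% rose. KDM5C, an H3K4 demethylase, read 3.75, 3.81 and 3.92 in DMSO and 3.19, 3.01 and 3.11 in DTE, and fell by 0.72 (adjusted p = 8e-05), while PHF2 fell by 0.91 (adjusted p = 1.4e-05). KDM6A, an H3K27 demethylase, read 5.09, 5.61 and 5.10 in DMSO and 5.82, 5.85 and 5.87 in DTE, and rose by 0.58 (adjusted p = 0.0031). Its relative KDM6B fell by 0.56 (adjusted p = 0.0054), and by 0.32 after quantile normalization. Of the arginine methyltransferases 6 fell, 3 of them also after quantile normalization, led by PRMT3 at -0.98 (adjusted p = 2.4e-05).

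**Figure D4:**
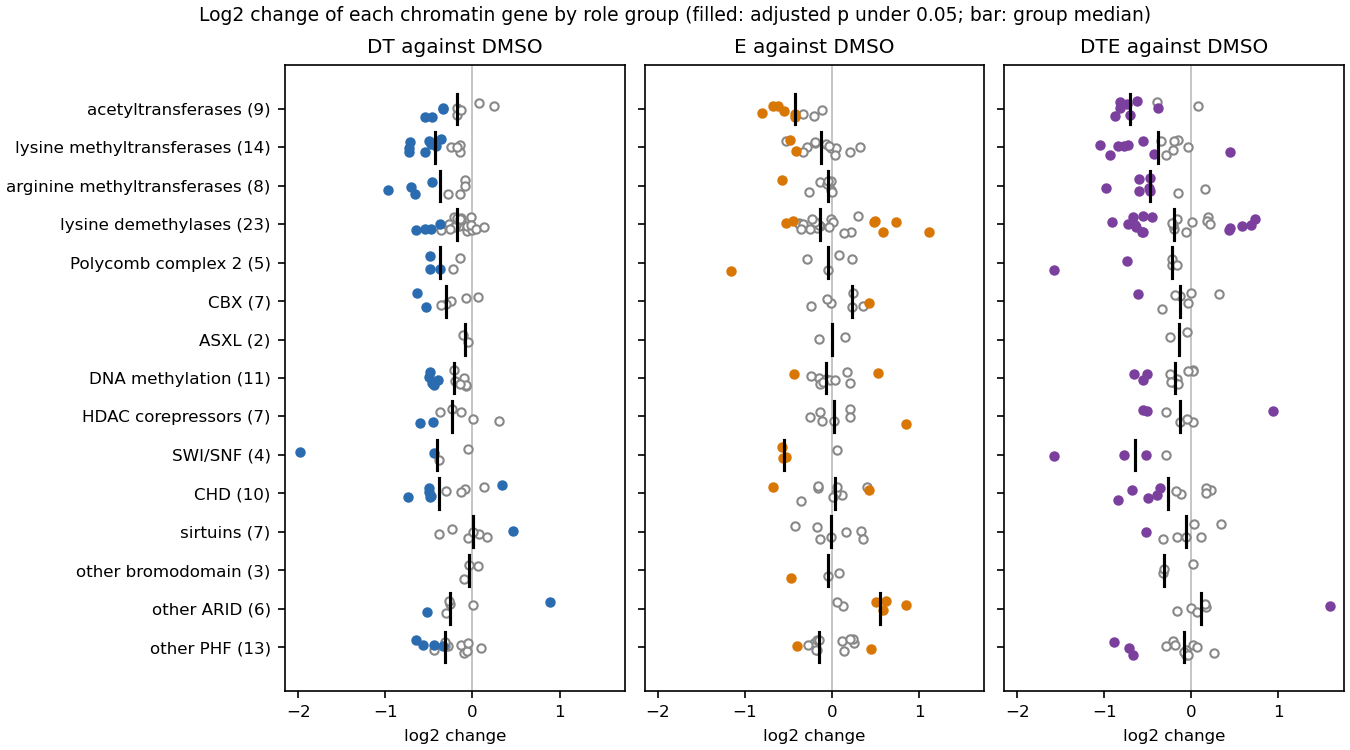
Log2 change of each member (horizontal axes) by role group (rows, number of members in brackets) for each treatment against DMSO; filled dots were called at an adjusted p under 0.05 and black bars are group medians. Acetyltransferase genes lie mostly to the left in E (6 of 9 called lower) and DTE (7 of 9), and 4 of 9 were called lower in DT. The separate dot at -1.98 in DT is PHF10.

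PHF10 was the member whose response to the 3 drugs departed from the sum of the separate effects. It read 8.72, 8.97 and 8.71 in E and 7.72, 7.71 and 7.93 in DTE, so the DTE arrays lay above the DT arrays and below the E arrays. Entinostat changed it by -0.56 in the absence of the kinase inhibitors (SE 0.13, limma adjusted p = 0.005) and by 0.40 in their presence (SE 0.13, adjusted p = 0.0329). The second value was lost without DT 1, DT 3, DTE 2 or DTE 3 and after median centring (0.23, adjusted p = 0.129). The difference between both, 0.96 (SE 0.18, adjusted p = 0.0108), was 0.86 after quantile normalization (adjusted p = 0.0062) and was called without each array in turn. Over all genes 0.562% departed upwards and 0.473% downwards at this threshold, and 1.19% and 0.96% after quantile normalization, when CHD3 was the other member called. With median centring PHF10 was again called, against 1.1% and 0.734% of all genes.

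Under the separate treatments 5 members were called in opposite directions. ARID5A, CHD7, DNMT3B and KDM7A fell in DT and rose in E, 3.10% of members beside 3.08% of all genes, a share near the background. CHD3 rose in DT and fell in E, 0.775% of members beside 0.165% of all genes. After quantile normalization KDM7A was the member that fell in DT and rose in E (0.775%, against 1.52% of all genes). On that scale ARID1B, CHD3 and KAT2B rose in DT and fell in E (2.33%, against 0.789% of all genes). KDM7A, called on each of the 3 scales, read 5.0, 5.14 and 5.10 in DMSO, 4.36, 4.71 and 4.23 in DT, 5.57, 5.78 and 5.65 in E and 5.19, 5.24 and 5.43 in DTE. The 4 groups did not overlap. It fell by 0.65 in DT (SE 0.13, limma adjusted p = 0.0014), rose by 0.59 in E and changed by 0.21 in DTE (adjusted p = 0.258). The DT calls of ARID5A, CHD7 and DNMT3B were lost after quantile normalization (-0.31, -0.09 and -0.29).

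No treatment against DMSO gave a call for 49 of the 129 members (38.0%, against 54.0% of all genes). These included CHD4, DNMT3A, EZH1, RCOR1, TET1, BRD3, KDM5A, CBX5, CBX7 and 5 of the 7 sirtuins. CHD4 changed by -0.08 in DT, 0.05 in E and -0.12 in DTE, with a standard error of 0.12 each. CBX5, the gene of heterochromatin protein HP1 alpha, changed by -0.36, -0.06 and -0.19 with a standard error of 0.16, so the DT value was 0.36 below DMSO without passing the test (adjusted p = 0.114). CBX2, a Polycomb repressive complex 1 subunit, was called higher in E (0.43, adjusted p = 0.0303, lost without DMSO 3 or any E array) and not after quantile normalization (0.30, adjusted p = 0.0828).

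Genes that encode other chromatin regulators, outside the symbol rule, were read from a separate list of which 116 of 160 were measured. In DT 60 fell as deposited, where 24.1% of all genes and 50.1% of the genes above the median level, fitted alone, did. After quantile normalization 8 fell and 6 rose, against 7.86% and 8.55% of all genes. In that list PBRM1, the PBAF subunit that carries several bromodomains, changed by 0.09 in DT (limma adjusted p = 0.645). It was called higher after quantile normalization (0.47, adjusted p = 0.0024). PHC2, a Polycomb repressive complex 1 subunit, changed by -1.95 in DT (SE 0.13, limma adjusted p = 5.3e-09). In E 15 of the list fell and 7 rose, against 3.54% and 12.5% of all genes. After quantile normalization 27 fell and 6 rose, against 8.45% and 9.67% of all genes. As deposited, L3MBTL3, a reader of methylated lysine, changed by 1.53 in E (adjusted p = 2.8e-07). JADE2, a scaffold of KAT7 complexes, changed by -0.96 (adjusted p = 0.00081). All 11 histone deacetylase genes of the classical family were measured. Of these, 4 rose in E and 3 did after quantile normalization, against 12.5% and 9.67% of all genes. HDAC5 changed by 0.77 (adjusted p = 0.0012) and HDAC2, a target of entinostat, by 0.56 (adjusted p = 0.0158). In DT 4 of the 11 fell and 1 rose as deposited, against 24.1% and 3.23% of all genes. After quantile normalization 1 fell and 3 rose, against 7.86% and 8.55%. HDAC4 fell by 0.81 in DT as deposited (limma adjusted p = 8.8e-05).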

How the data were processed

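Expression was measured on 12 Affymetrix arrays, 3 per group. The treatment label set each array's group. Intensity values, 1 for each probe set on each array, were deposited by the authors on a linear scale. RMA and the Transcriptome Analysis Console are named in the submitters' processing notes without a version. Any later scaling is not stated there, and array medians differed. Spot counts and background measures were not used here. Because each group had 3 arrays, that number limits the precision.

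Of 29396 probe sets, 14748 carried 1 gene symbol and 14648 none. All 14748 matched a RefSeq gene by NCBI gene number, from which the current symbol was taken, and the brightest probe set of each gene was kept, giving 14580 genes with no filter on dim genes. Intensities were converted to log2. Group means over 12 arrays were fitted with limma 3.58.1 in R 4.3.3 (lmFit, contrasts and eBayes, 8 residual degrees of freedom), with Benjamini-Hochberg adjustment over the 14580 genes. The fit was tested on simulated data. A fold change is 2 to the power of the log2 change.

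The members and lists were chosen with earlier results of these data known. Genes were named by rule: up to 10 largest called changes each way against DMSO and 6 each way in the other comparisons whose arrays did not overlap, up to 4 departures each way, up to 2 called per role group and direction, and 31 genes named in advance, of which 22 were measured. A few others are named because they belong to a count or are paralogs, and were chosen after their values were seen. Same-numbered arrays deviated together little (correlations -0.0966 to 0.172 over 18 pairs), so the replicate number was not used as a block. Alternatives were quantile normalization, median centring, a dim-gene filter, an intensity trend, a mean over probe sets, fits of the compared groups alone, a replicate block and leaving out each array. A fit of genes above the median level and quantile normalization with the block were added after seeing the data. Promoter sequences were those of RefSeq. Lists of epithelial (9 measured), fibroblast (3) and blood (5) markers were read as signs of other cells.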

Additional observations from a re-analysis of the deposited data

Results flagged for a closer look

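PHF10, a subunit of the PBAF form of SWI/SNF, differed in its response to entinostat with and without dabrafenib and trametinib. The difference between the changes was 0.96 on the log2 scale (SE 0.18, limma adjusted p = 0.0108), since entinostat changed PHF10 by -0.56 against DMSO and by 0.40 against DT. The cause was not tested.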

How the results depend on the processing

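The scale of the arrays changed more results than any other alternative run. After quantile normalization the members called in DT were 11 higher and 9 lower with a median of 0.011. In E 35 were lower, in DTE 16 were higher with a median of -0.052, in DTE against DT 33 were lower, in DTE against E 18 were higher and 3 lower, and 2 members were not additive. With median centring DT gave 7 higher, 17 lower and a median of -0.048, E gave 6 higher, 51 lower and a median of -0.25, DTE against DT gave 38 lower, and DTE against E gave 15 higher and 8 lower. No member called as deposited was called in the opposite direction after quantile normalization. In DT 17 of 129 members were above 0 as deposited and 70 after quantile normalization. Among those that changed sign were CREBBP (0.0009, with quantile normalization and with its block) and KDM5B (0.36). The cause was not tested.

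Leaving out 1 array at a time gave 1 to 4 members higher and 24 to 54 lower in DT (median -0.30 to -0.18), 8 to 17 higher and 13 to 21 lower in E (median -0.11 to 0.01, the highest without DMSO 2), and 7 to 9 higher and 41 to 52 lower in DTE (median -0.28 to -0.15). It gave 10 to 19 higher and 9 to 20 lower in DTE against DT, 1 to 2 higher and 20 to 42 lower in DTE against E, and 1 not additive each time.

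With the replicate number as a block, the counts were 3 higher and 49 lower in DT, 14 and 21 in E, 8 and 52 in DTE, 17 and 21 in DTE against DT, 2 and 43 in DTE against E, and 1 not additive. For 9 of 12 arrays, the mean correlation with arrays of the other groups was highest for those of their own number. This is a hint from the data and not from the design. Quantile normalization together with the replicate block, chosen after seeing the data, gave 12 higher and 10 lower in DT (median 0.011), 36 lower in E, 15 higher in DTE (median -0.052), 35 lower in DTE against DT, 18 higher and 5 lower in DTE against E, and 2 not additive.

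Of 153 values of named members, 119 of them called, 32 lost and 3 gained a call after quantile normalization, and 21 lost and 5 gained one with median centring. The dim-gene filter, the intensity trend and the mean over probe sets took a call from 0 of them. Fits of the compared groups alone, which use fewer arrays, lost 3. Signal over background was not measured, so changes in the 7 dimmest members are uncertain.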

Other observations

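The summed intensity of marker genes of other cell types also moved between the groups. The fibroblast and blood sums rest mostly on their brightest gene. LUM averaged 7.91 on the log2 scale, beside 5.11 for THY1 and 2.2 for DCN. CD68 averaged 8.72, beside 4.54 or less for the other blood cell markers. The summed intensity of 3 fibroblast markers ran from 166.2 to 193.2 for DMSO, 184.8 to 246 for DT, 300.8 to 358.6 for E and 439.1 to 600.5 for DTE, and 1 of them lay below the lower quartile of genes in each group. For 9 epithelial markers the sums ran from 125 to 154.9 for DMSO, 104 to 123.6 for DT, 182.8 to 208.9 for E and 125.7 to 140.9 for DTE. For 5 blood cell markers they ran from 460.9 to 496.1, 328.2 to 361, 646.8 to 759.3 and 393.1 to 454.8, in the same order. Their part in the changes of the chromatin genes was not tested.

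In the list of other chromatin regulators, 54 of 116 genes fell and 3 rose in DTE, where 22.5% and 9.64% of all genes did. Of the genes above the median level, fitted alone, 44.6% fell and 12.2% rose. After quantile normalization 34 of the list fell and 9 rose, against 14.2% of all genes each way. JADE2, a scaffold of KAT7 complexes, had a mean of 5.92 ± 0.22 (SD, n = 3) under DMSO, 5.47 ± 0.14 under DT, 4.96 ± 0.18 under E and 3.99 ± 0.41 under DTE on the log2 scale, and changed by -1.93 in DTE (limma adjusted p = 2.2e-07). HCFC1, a host cell factor found in KMT2 and SIN3 complexes, averaged 9.77 ± 0.10 in DMSO and 8.47 ± 0.13 in DTE, a change of -1.30 (adjusted p = 2.1e-07). L3MBTL3 averaged 4.82 ± 0.15 under DMSO, 4.33 ± 0.07 under DT, 6.35 ± 0.09 under E and 5.79 ± 0.24 under DTE. PHC2 averaged 7.20 ± 0.21 under DMSO, 5.26 ± 0.11 under DT, 7.47 ± 0.16 under E and 5.82 ± 0.13 under DTE, so both groups with the kinase inhibitors were low.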
